A study of Drosophila melanogaster with 10 samples.

Results

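The 6 genes described here are Lsd-1, Lsd-2, bgm, Lip4, bmm and Apoltp, which encode lipid droplet coat proteins, lipases, an acyl-CoA synthetase and a lipid carrier. They were chosen by gene symbol, as the probe sets of the array whose annotation names 1 of these genes alone. Each had 1 probe set, so 6 of the 13647 probe sets that name a single gene are described, out of 18952 on the array. In the Drosophila Release 6 gene table Lsd-1 lies on arm 3R, Lsd-2 on the X chromosome, bmm on 3L, and bgm, Lip4 and Apoltp on 2L.

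The samples were S2 cells, a cultured line from Drosophila embryos with features of macrophage-like blood cells. All received 10 µg of double-stranded RNA (dsRNA) for 1 h, were split on day 3 and were harvested on day 7. In batch A, 2 samples received dsRNA against the 5prime part of JIL-1 and 3 control samples received dsRNA against GST. In batch B, 3 samples received dsRNA against the 3prime part of JIL-1 and 2 control samples received dsRNA against EGFP. Every sample, controls included, was therefore given dsRNA, and the comparison over both batches set 5 JIL-1 RNAi samples against 5 controls. JIL-1 encodes a kinase of histone H3 bound to chromatin. RNA interference (RNAi) lowers a transcript without removing the gene. Batch and dsRNA went together, so their parts in any difference between batches cannot be told apart.

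Cells keep surplus fat as triacylglycerol in droplets, whose surface carries perilipin proteins that control the access of lipases. In the fly, Lsd-1 and Lsd-2 are the perilipins, and the lipase encoded by bmm (brummer) releases fatty acids from the stored fat. Freed fatty acids are joined to coenzyme A by acyl-CoA synthetases such as that of bgm (bubblegum) before they are burned or built into new lipids, and lipid leaves cells on large apolipoproteins. In the animal these genes are best known from the fat body, the storage organ that serves as liver and adipose tissue.

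Values are log2 signals of a probe set on 1-colour arrays, as made by the authors with GCRMA. Signals of different probe sets are not comparable, so levels are compared between samples and not between genes. A change is the log2 difference of JIL-1 RNAi minus control RNAi and its standard error (SE) is given beside it. It comes from 1 limma model with a batch term, fitted to the 6721 genes and unassigned probe sets whose mean exceeded 4. "Rose" and "fell" mean a Benjamini-Hochberg adjusted p under 0.05 over all of these. Array medians over these 6721 lay between 9.22 and 9.42, and precision is limited by having 10 arrays. The JIL-1 transcript itself stood at 4.35 and 4.35 in JIL-1 RNAi cells of batch A, against 5.79, 5.95 and 5.66 in controls, and at 5.66, 5.78 and 5.84 in JIL-1 RNAi cells of batch B, against 7.53 and 7.34 in controls. All 12 listed markers of plasmatocytes, the macrophage-like blood cells, were among the tested genes. Of 7 fat body markers with a probe set 6 lay under 4 on all 10 arrays, as did 4 of 4 markers of oenocytes, which also handle lipid.

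Of the 5 lipid genes that could be tested, Apoltp rose and Lsd-1, bgm, Lip4 and bmm fell after JIL-1 RNAi. The changes ran from 2.71-fold higher for Apoltp to 2.07-fold lower for Lsd-1. The median change of the 5 genes was -0.69, against 0.047 over all tested, of which 20.8% rose and 14.9% fell. In each batch the JIL-1 RNAi and control samples of all 5 genes were separate, Apoltp above and the other 4 below. JIL-1 RNAi samples lay above the controls in both batches for 18.2% of all tested and below them in both for 13.4%. The 6 genes were proposed with results of these data known, so these counts are a description of the chosen genes.

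**Figure D1:**
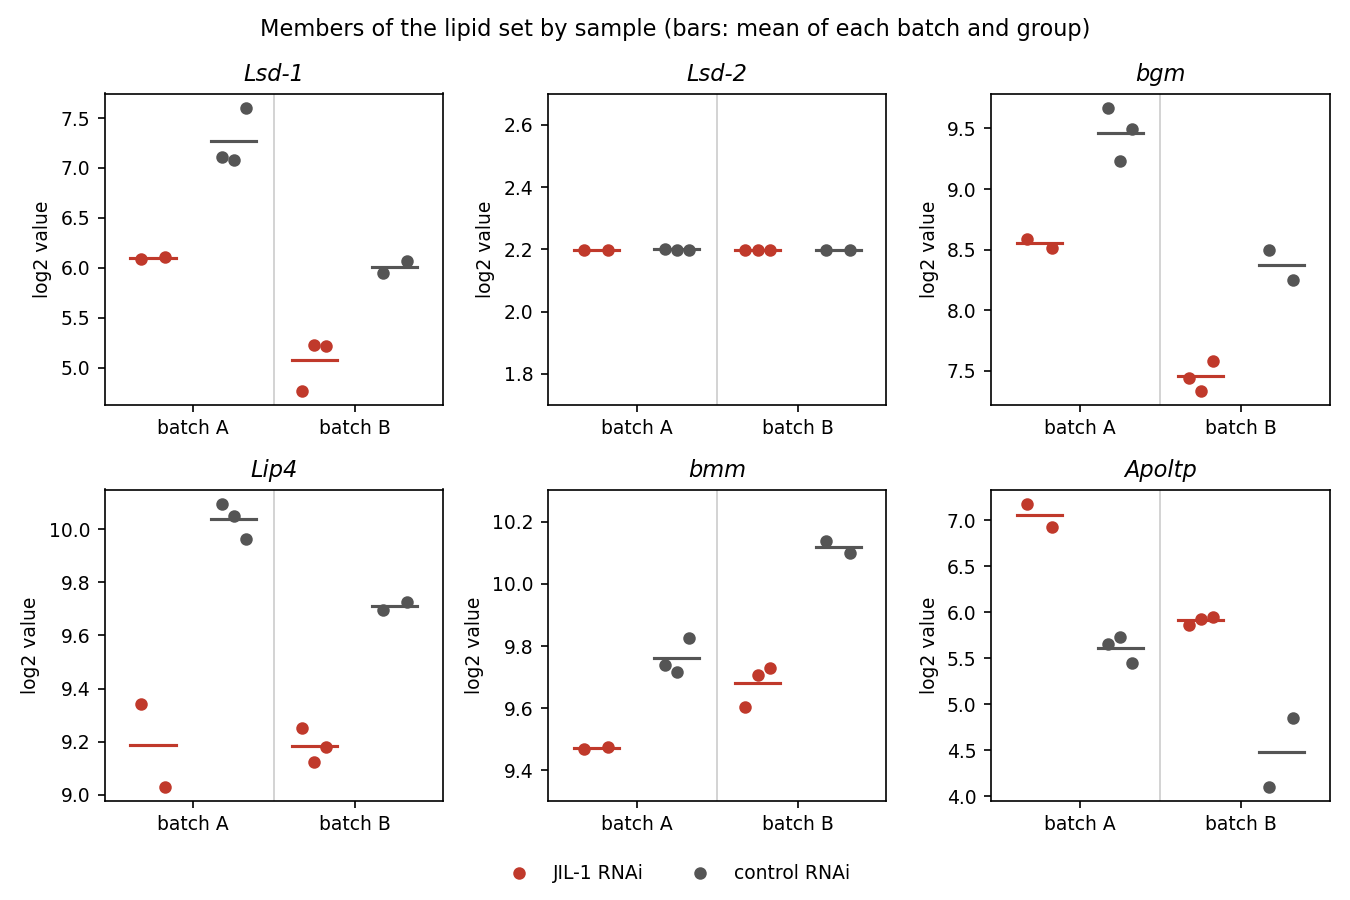
Log2 value of each member on each array (vertical axis, its range set per gene), by batch, with JIL-1 RNAi samples left of control RNAi samples and a bar at the mean of each batch and group. Within each batch the red points lie below the grey ones for Lsd-1, bgm, Lip4 and bmm and above them for Apoltp, while Lsd-2 lies at 2.20 throughout.

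Lsd-1 encodes a perilipin of the droplet surface that in the fly takes part in hormone-stimulated release of fat. In batch A its value was 6.09 and 6.10 in JIL-1 RNAi cells, against 7.11, 7.08 and 7.60 in controls. In batch B it was 4.77, 5.23 and 5.22 in JIL-1 RNAi cells, against 5.95 and 6.07 in controls. The groups did not overlap within a batch, but JIL-1 RNAi cells of batch A lay slightly above the controls of batch B. Lsd-1 fell by 1.05 (SE 0.13, adjusted p = 0.000188 by limma), a level 2.07-fold lower. A gene named CG10214 overlaps Lsd-1 in the gene table, and its own probe set rose by 0.47 (SE 0.06, adjusted p = 0.000474 by limma).

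Lsd-2 encodes the other perilipin, which in the fly shields stored fat from lipases. Its probe set gave 2.20 in both JIL-1 RNAi samples and all 3 controls of batch A, and 2.20 in the 3 JIL-1 RNAi samples and both controls of batch B. This is the lowest value of the arrays, shared by 50.5% to 51.8% of the probe sets of an array to within 0.01. Lsd-2 was therefore not tested. Its value sets no order between samples and cannot tell a silent gene from a probe set that gave no signal.

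Bmm encodes the fly counterpart of adipose triglyceride lipase, which starts the breakdown of stored triacylglycerol. In batch A bmm stood at 9.47 and 9.48 in JIL-1 RNAi cells, against 9.74, 9.72 and 9.83 in controls. In batch B it stood at 9.61, 9.71 and 9.73 in JIL-1 RNAi cells, against 10.14 and 10.10 in controls. The fall of bmm was the smallest of the 4, at -0.36 (SE 0.05, adjusted p = 0.000591 by limma) or 1.29-fold, and its groups did not overlap in either batch.

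Lip4 encodes a lipase of the acid lipase family. Its value was 9.34 and 9.03 in JIL-1 RNAi cells of batch A, against 10.10, 10.05 and 9.96 in controls. In batch B Lip4 stood at 9.25, 9.12 and 9.18 in JIL-1 RNAi cells, against 9.69 and 9.73 in controls. All 5 JIL-1 RNAi samples were below all 5 controls, whatever the batch. Lip4 fell by 0.69 (SE 0.08, adjusted p = 0.000195 by limma), or 1.61-fold.

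The product of bgm activates very long chain fatty acids. In batch A bgm stood at 8.59 and 8.52 in JIL-1 RNAi cells, against 9.67, 9.23 and 9.50 in controls, and in batch B at 7.45, 7.34 and 7.58 in JIL-1 RNAi cells, against 8.50 and 8.25 in controls. As with Lsd-1, the groups were apart within each batch, and both JIL-1 RNAi samples of batch A were above the controls of batch B. The change of bgm was -0.91 (SE 0.09, adjusted p = 5.68e-05 by limma), a level 1.89-fold lower.

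Apoltp encodes the apolipoprotein of the lipid transfer particle, which in the fly moves lipid between tissues and the circulating carrier lipophorin. Its value was 7.18 and 6.92 in JIL-1 RNAi cells of batch A, against 5.66, 5.72 and 5.45 in controls. In batch B Apoltp stood at 5.87, 5.93 and 5.94 in JIL-1 RNAi cells, against 4.11 and 4.85 in controls. Every JIL-1 RNAi sample lay above every control sample of either batch. The rise of 1.44 (SE 0.13, adjusted p = 2.48e-05 by limma) was the 8th largest rise of the 6721 tested.

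**Figure D2:**
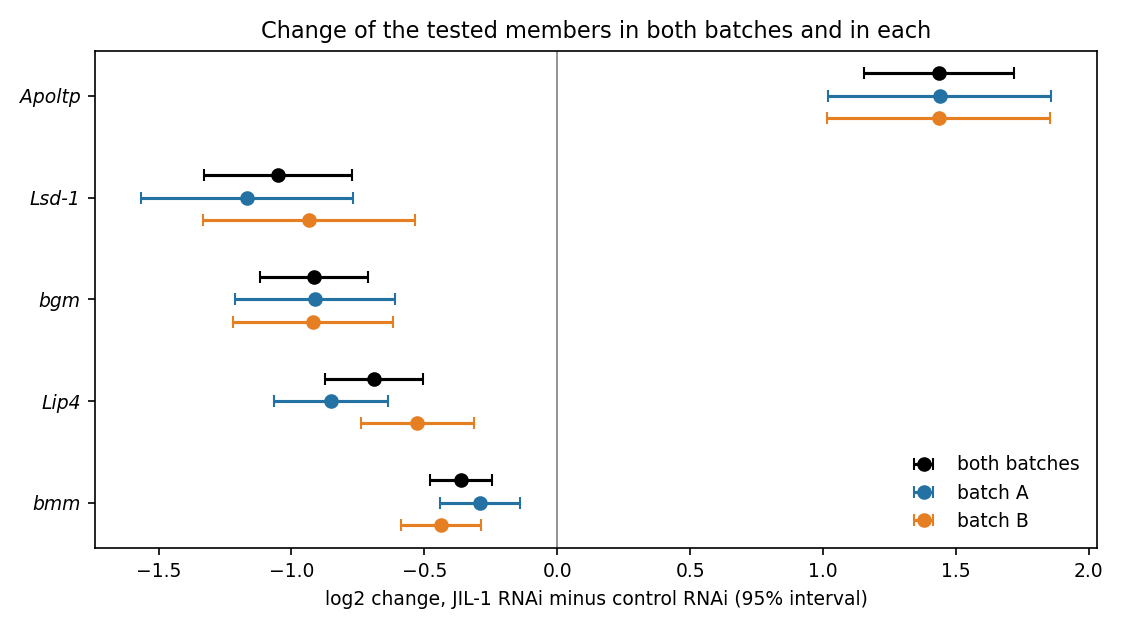
Log2 change of the 5 tested members (horizontal axis, JIL-1 RNAi minus control RNAi; points with 95% intervals from limma), over both batches and within each. No interval includes 0; for bgm and Apoltp the changes in the 2 batches differ by less than 0.01.

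Each batch, with its own JIL-1 dsRNA, gave a reading of each gene. Within batch A, Apoltp rose and the other 4 genes fell, where 17.3% of all tested rose and 10.9% fell. Within batch B the same directions were called for the same 5 genes, where 7.44% of all tested rose and 10.2% fell. The changes in batch A were -1.17 for Lsd-1, -0.91 for bgm, -0.85 for Lip4, -0.29 for bmm and 1.44 for Apoltp. In batch B they were -0.94 for Lsd-1, -0.92 for bgm, -0.53 for Lip4, -0.44 for bmm and 1.43 for Apoltp. The weakest of these 10 calls was that of bmm in batch A, with an adjusted p of 0.0112 by limma; it was 0.0560 without JIL-1 RNAi replicate 1 and 0.0528 without replicate 2. The call of Lsd-1 in batch B had an adjusted p of 0.00627, and 0.0615 without control replicate 5.

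None of the 5 genes passed the test of the difference between batches, which 1.38% of all tested passed. The difference, batch B minus batch A, was 0.23 for Lsd-1 (95% interval -0.33 to 0.80), -0.005 for bgm (-0.43 to 0.42), 0.33 for Lip4 (0.02 to 0.63), -0.15 for bmm (-0.36 to 0.06) and -0.004 for Apoltp (-0.60 to 0.59). Lip4 had an unadjusted p of 0.0370 and an adjusted p of 0.299 by limma. For Lsd-1, Lip4 and Apoltp the intervals allow differences of over 0.5 on the log2 scale, and for none of the 5 genes are equal responses shown.

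The starting levels differed between the batches in all 5 genes. Controls of batch B, which received EGFP dsRNA, had lower values than the GST dsRNA controls of batch A in Lsd-1 (-1.26, SE 0.18), Apoltp (-1.13, SE 0.19), bgm (-1.09, SE 0.13) and Lip4 (-0.33, SE 0.09), and higher values in bmm (0.36, SE 0.07). The adjusted p by limma ran from 0.000111 for bgm to 0.0138 for Lip4. Such differences were common, with 37.7% of all tested higher in the controls of batch B and 24.7% lower. The call of Lip4 did not hold without control replicate 4 (adjusted p = 0.0753 by limma) or control replicate 5 (0.0548). In Lsd-1 and bgm the difference between the control groups was larger in size than the estimated change after JIL-1 RNAi. In a fit without the batch term Lip4 kept its call and the other 4 genes kept the direction of their changes but lost their calls. The changes were then -1.28 for Lsd-1 (adjusted p = 0.0733 by limma), -1.13 for bgm (0.0884), 1.21 for Apoltp (0.0875) and -0.31 for bmm (0.122).

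Other genes of lipid metabolism were read from 8 lists by role, 90 genes in all with the 6 above, of which 78 had a probe set of their own and 52 were tested. Without the 5 tested members, 9 of 47 rose (19.1%) and 8 fell (17.0%), near the shares of all tested (20.8% and 14.9%). The median change was 0.044. The lists were fixed with earlier results of these data known. Differences between the lists were not tested.

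The lists of triacylglycerol and phospholipid synthesis and of droplet coat and assembly are given next. Of all tested 14.9% fell and 20.8% rose. Of 10 tested genes of triacylglycerol and phospholipid synthesis 4 fell and none rose (median -0.06). Agpat2, an acyltransferase that makes phosphatidic acid, stood at 7.05 and 6.85 in JIL-1 RNAi cells of batch A, against 8.18, 8.02 and 8.06 in controls. In batch B Agpat2 stood at 7.89, 7.93 and 7.89 in JIL-1 RNAi cells, against 8.94 and 8.84 in controls, and it fell by 1.06 over both batches (SE 0.06, adjusted p = 1.51e-06 by limma). The acyltransferase of the step before it, mino, fell by 0.61 (SE 0.10), with JIL-1 RNAi values of 10.38 and 10.98 in batch A that lay further apart than those of any control group. Gpdh1, which makes the glycerol 3-phosphate that mino uses, fell by 0.48 (SE 0.08). The 4th, bbc, a phospholipid enzyme named here only to complete the count, fell by 0.25. The other 6 tested genes of this list did not pass. Their changes ran from -0.07 for eas to 0.19 for Lpin, with mdy at 0.10. Dgat2 was not tested. Of 4 tested droplet genes 2 fell (median -0.02), Lsd-1, chosen with results known, and Seipin. Seipin, a protein of droplet assembly, fell by 0.17 (SE 0.05, adjusted p = 0.0334 by limma). It did not pass within batch A (adjusted p = 0.103 by limma) or batch B (0.208). Seipin kept its call in 4 of the 10 fits that left out 1 sample, and lost it without JIL-1 RNAi replicate 2, 4 or 5 or control replicate 3, 4 or 5 (adjusted p = 0.0533 to 0.106).

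Both carnitine palmitoyltransferases, which pass fatty acids into mitochondria, rose. Of 9 tested genes of beta-oxidation 3 rose and 1 fell (median 0.01), where 20.8% of all tested rose and 14.9% fell. The carnitine palmitoyltransferase of the outer mitochondrial membrane, whd, stood at 10.88 and 10.62 in JIL-1 RNAi cells of batch A, against 10.07, 10.17 and 10.28 in controls. In batch B whd stood at 10.40, 10.10 and 10.30 in JIL-1 RNAi cells, against 9.71 and 9.52 in controls, and it rose by 0.61 over both batches (SE 0.08, adjusted p = 0.000376 by limma). Its partner inside the mitochondrion, CPT2, rose by 0.42 (SE 0.07). Mtpbeta, the thiolase subunit of the mitochondrial trifunctional protein, rose by 0.21 (SE 0.06). It had no call without JIL-1 RNAi replicate 1 (adjusted p = 0.0584 by limma) or control replicate 5 (0.0584). Nor did it pass within batch A (0.171) or batch B (0.0501). Arc42, an acyl-CoA dehydrogenase named to complete the count, fell by 0.19 with an adjusted p of 0.0476 by limma, and 5 other genes of the pathway did not pass.

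**Figure D3:**
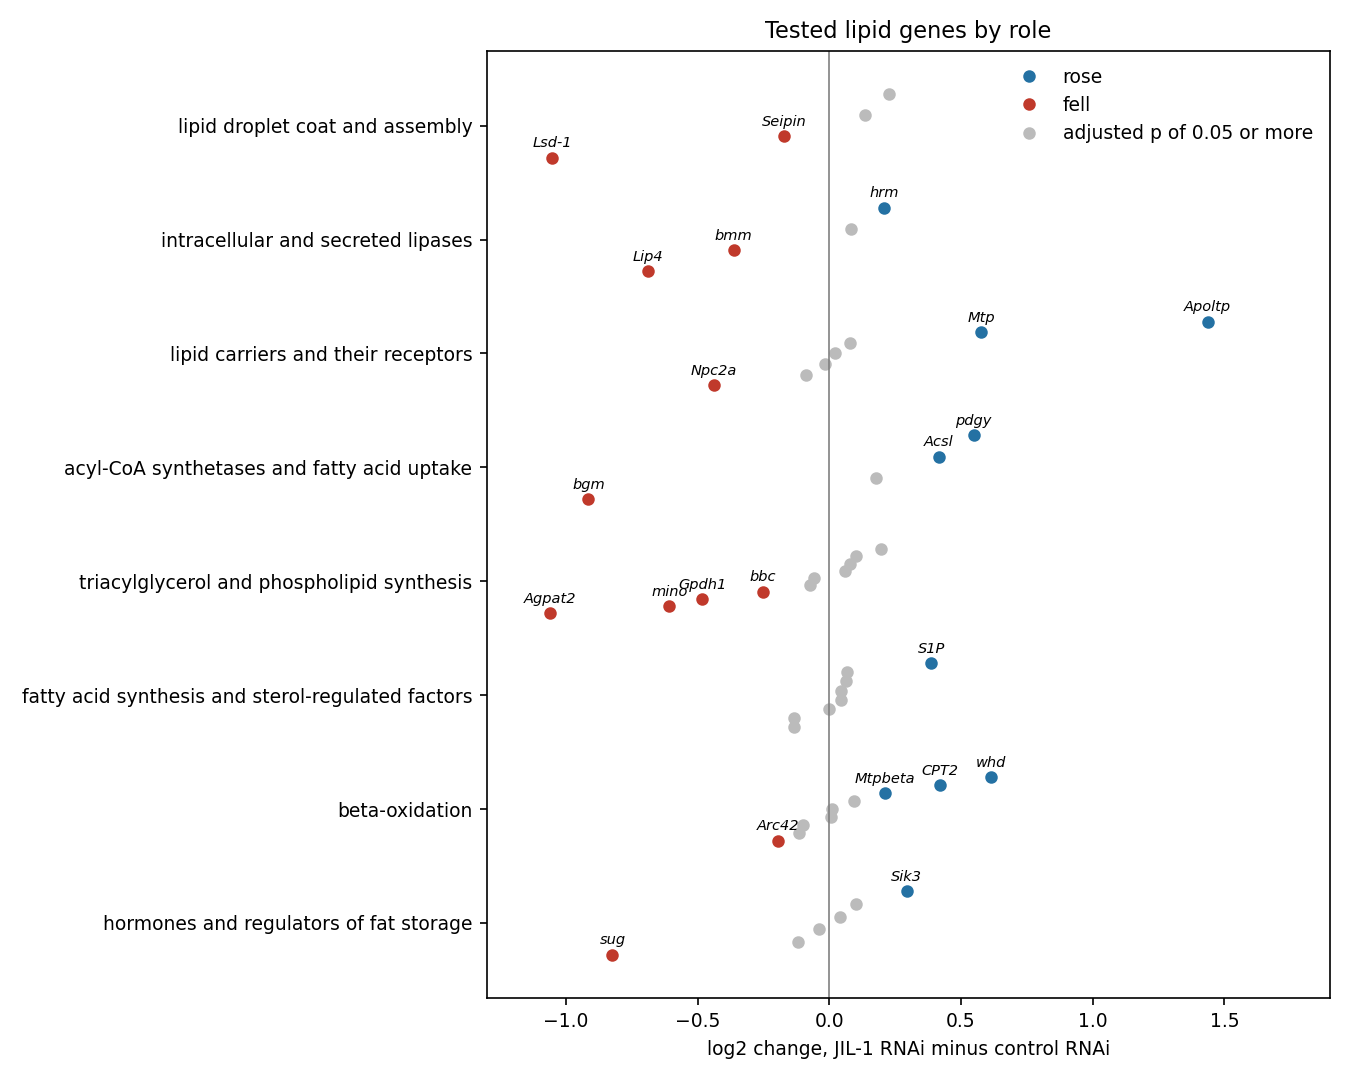
Log2 change of the 52 tested lipid genes (horizontal axis, JIL-1 RNAi minus control RNAi), 1 point per gene, in 8 lists by role (vertical axis). Blue points rose, red points fell and grey points did not pass; names are given for the genes that passed, and hrm stands in the lipase list without being a known lipase.

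Among the carriers Apoltp was joined by Mtp. Of 7 tested carriers and receptors 2 rose and 1 fell (median 0.02), where 20.8% of all tested rose and 14.9% fell. Mtp encodes the microsomal triacylglycerol transfer protein, which loads apolipoproteins with lipid. Its values were 8.59 and 8.52 in JIL-1 RNAi cells of batch A, against 7.96, 8.03 and 8.19 in controls, and 8.89, 8.83 and 8.70 in JIL-1 RNAi cells of batch B, against 8.13 and 8.15 in controls. Mtp rose by 0.58 (SE 0.07, adjusted p = 0.000137 by limma), and all 5 JIL-1 RNAi samples exceeded all 5 controls. Npc2a, a sterol-binding protein of the lysosome, fell by 0.44 (SE 0.06). The lipophorin gene apolpp, another apolipoprotein of the same family, changed by -0.09 (SE 0.28, adjusted p = 0.833 by limma). Its change was 0.42 within batch A and -0.59 within batch B, a difference that did not pass (adjusted p = 0.379 by limma).

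The acyl-CoA synthetases went both ways. Of 4 tested genes of this list bgm fell and 2 rose (median 0.30), where 14.9% of all tested fell and 20.8% rose. The rises were pdgy, by 0.55 (SE 0.07, adjusted p = 0.000277 by limma), and Acsl, which activates long-chain fatty acids, by 0.42 (SE 0.10, adjusted p = 0.00945 by limma). Acsl did not pass within batch A (adjusted p = 0.0846) or batch B (0.0565), nor over both batches with no filter on the mean (0.0602). A close relative of bgm, hll, had a mean under the filter and was not tested. In the lipase list 4 of 9 genes with a probe set were tested, and beside Lip4 and bmm only hrm passed. It rose by 0.21 (SE 0.05, adjusted p = 0.0143 by limma, and 0.0513 without control replicate 5). Within batch A hrm did not pass (0.172). The gene table gives Hermes as another name of hrm, which is not known as a lipase and was listed by mistake. Lip1, Lip2, Lip3, mag and CG5966 had means under the filter and were not tested.

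**Figure D4:**
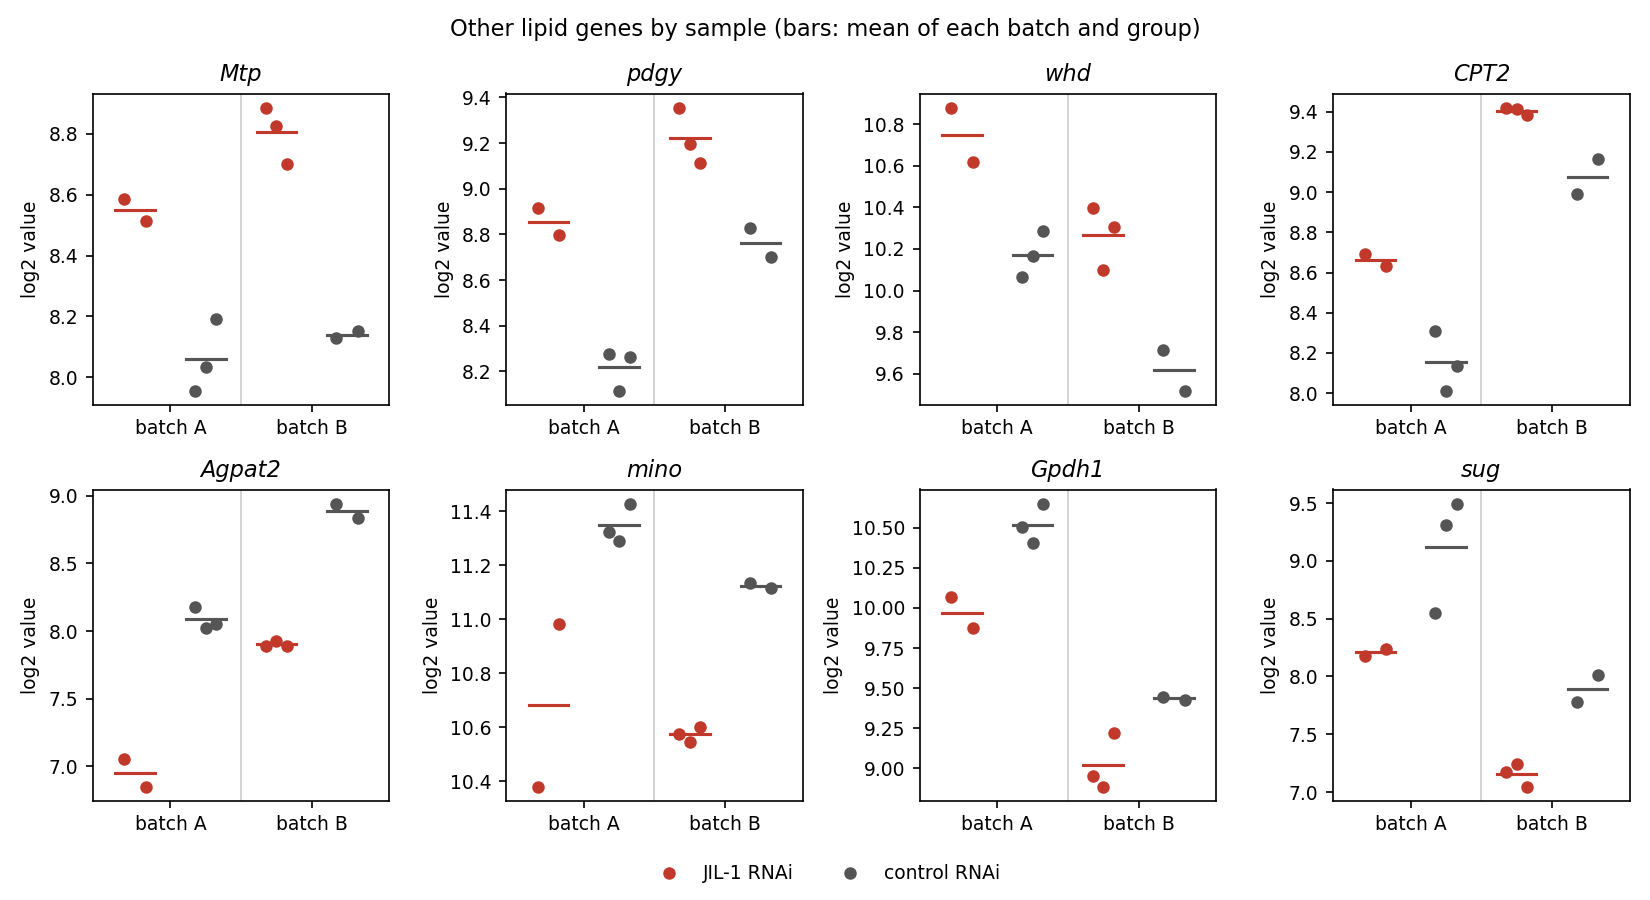
Log2 value on each array (vertical axis, its range set per gene) of 8 other lipid genes, by batch, with JIL-1 RNAi samples left of control RNAi samples and a bar at the mean of each batch and group. Within each batch Mtp, pdgy, whd and CPT2 lie higher, and Agpat2, mino, Gpdh1 and sug lower, in JIL-1 RNAi cells. Other genes named from the lists are not drawn here, among them Seipin, hrm, Acsl, Mtpbeta and Sik3, whose groups overlapped in batch A for Sik3.

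Genes of fatty acid synthesis and sterol-regulated factors, which form 1 list, showed 1 rise and no fall among 8 tested (median 0.04). Of all tested 20.8% rose and 14.9% fell. The rise was that of S1P, a protease that activates the lipid-gene factor SREBP, by 0.39 (SE 0.06, adjusted p = 0.000800 by limma). SREBP itself changed by 0.06, fatty acid synthase FASN1 by -0.001 and acetyl-CoA carboxylase ACC by -0.13, and none of the 3 passed. Of 6 tested regulators of fat storage 1 rose and 1 fell (median -0.001), beside the same shares of all tested. Sug, a zinc-finger factor of the response to dietary sugar, fell by 0.82 (SE 0.16, adjusted p = 0.00308 by limma). It did not pass within batch B (0.0555). Its control values in batch A were spread, at 8.55, 9.31 and 9.50, against 8.18 and 8.24 in JIL-1 RNAi cells. The kinase gene Sik3 rose by 0.29 (SE 0.09, adjusted p = 0.0247 by limma), and its groups overlapped in batch A. It did not pass within batch A (adjusted p = 0.227 by limma) or batch B (0.0580). Sik3 lost its call without JIL-1 RNAi replicate 2 or 4 or control replicate 4 or 5 (adjusted p = 0.0521 to 0.0714), and also with no filter on the mean (0.110).

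Some blood cell markers also fell, where 14.9% of all tested did. Of the 12 plasmatocyte markers 6 fell and none rose, and the other 6 changed by -0.13 to 0.42 without passing. The 0.42 was that of Pxn, which changed by -0.04 within batch A and 0.88 within batch B. For Pxn the difference between batches passed (adjusted p = 0.00177 by limma). NimC1, among those that fell, changed by -2.14. Between the control groups, batch B minus batch A, it differed by -4.67. The other plasmatocyte markers differed there by -1.34 (Sr-CI) to 0.79 (srp). The mean level of the plasmatocyte list per array was 11.4 to 12.1 in JIL-1 RNAi samples and 11.9 to 12.6 in controls. This range and those below take both batches together. Both tested crystal cell markers fell (mean level of the list 4.99 to 6.68 in JIL-1 RNAi samples and 5.58 to 7.03 in controls). Between the control groups, batch B minus batch A, PPO1 differed by -1.95 and PPO2 by -2.07. Of 2 tested lamellocyte markers 1 fell (6.10 to 6.30 in JIL-1 RNAi samples and 6.20 to 6.35 in controls). The 1 tested muscle marker and both tested neuron markers did not pass. The mean level of the muscle list was 3.79 to 3.95 in JIL-1 RNAi samples and 3.67 to 3.98 in controls. That of the neuron list was 4.35 to 5.54 in JIL-1 RNAi samples and 4.25 to 5.71 in controls. Its marker elav differed by 3.04 between the control groups, batch B minus batch A. The fat body markers had a mean level of 2.67 to 2.85 in JIL-1 RNAi samples and 2.65 to 2.88 in controls, and apolpp, the 1 marker tested, did not pass. The part of these markers in the changes of the lipid genes was not tested. In such bulk RNA, fewer cells of a type and less RNA per cell cannot be told apart.

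The genes whose values ran most like those of each member were found from batch-centred values of the 10 arrays, as a description of samples that also share the JIL-1 RNAi contrast. They were CG7458 (Pearson r = 0.98) and DIP2 (0.98) for Lsd-1, and CG17224 (0.99) and CG9372 (0.99) for bgm. For Lip4 they were CG43125 (1.00) and CG18249 (0.99), for bmm CG42748 (0.99) and mav (0.98), and for Apoltp CG8036 (0.98) and senju (0.98). The genes most like Apoltp changed less than it did, by 0.19 for CG8036 and 0.45 for senju, and CG43125 changed more than Lip4, by -1.97. None of these 10 genes was in the lipid lists, which held only 52 of the 6721 tested.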

How the data were processed

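Log2 values, 1 for each probe set of each sample, were deposited by the authors, who used GCRMA per the submitters' processing notes. The GCRMA version and the handling of the batches in it are not stated there, and the log2 scale was inferred from the range of the values. The labels' protocols name 2 Qiagen extraction methods without saying which sample had which. Gene names came from the annotation of the platform and were updated by gene ID to the Release 6 gene table (13544 of 13647 matched). Array controls (183) were left out, and the brightest probe set stood for each gene. Probe sets with a mean above 4 entered limma (version 3.58.1, run under R 4.3.3), whose lmFit and eBayes gave two-sided tests from a model of group and batch and, for changes within and between batches, from the 4 means of batch and group, with Benjamini-Hochberg adjustment. The fits were tested on simulated data with 50 changes of each size. Over both batches 15 changes of 0.25, 36 of 0.5 and 48 of 1 were recovered. Within batch A 6 of 0.25 and 23 of 0.5 were recovered, and within batch B 4 and 24. Small changes were thus often missed, most of all within a batch. The series names the samples biological replicates. Replicates of a batch and group differed by a median of 0.07 to 0.14 (8 pairs).

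The members and lists were chosen with earlier results of these data known. Besides JIL-1 and the members, the text names per list up to 3 further genes past the threshold, by lowest p (1 gene if the list had no call), and the 2 genes most like each member; neighbouring genes, and genes given only to complete a count or as examples without a call, were chosen after their values were seen. Alternatives left out the batch term, the filter, each sample in turn, or the _s_at, _x_at and _a_at probe sets. Others required a mean above 6, kept all probe sets of a gene, raised values under 4 to 4, set arrays to one median or to the same quantiles, weighted arrays, let the variance follow a trend with robust estimation, or took replicate number or, at random, batch as a block. Changes within and between batches were recomputed without the filter, with a mean above 6, with quantiles, with all probe sets and without each sample.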

Additional observations from a re-analysis of the deposited data

How the results depend on the processing

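Lip4 kept its call over both batches in all 22 alternatives in which it was tested, and Lsd-1, bgm, bmm and Apoltp in all but the fit without batch. That fit called 501 of all tested, against 2397, and of the members 0 higher and 1 lower (Lip4); the changes kept their direction, at -1.26 for JIL-1 (adjusted p = 0.153), -1.28 for Lsd-1, -1.13 for bgm, -0.31 for bmm and 1.21 for Apoltp. Seipin, hrm, Acsl, Agpat2, Gpdh1, whd, CPT2, Mtpbeta, sug and Sik3 also lost their calls in it and kept their direction. A mean above 6 removed Apoltp, leaving 0 members higher over both batches and in each. Without the _s_at, _x_at and _a_at probe sets Lsd-1 and bgm were absent and 2 members were lower. With no filter 17105 were tested and 1452 were called over both batches, 1192 within batch A, and 734 within batch B; the adjusted p by limma was then 0.0653 for Lsd-1 in batch B and 0.0559 for Lip4 between the control groups.

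With the replicate number as a block 1203 of all tested were called, with 1 member higher and 4 lower as before; Seipin (adjusted p = 0.0903), hrm (0.0828), Mtpbeta (0.101) and Sik3 (0.0604) lost their calls. Sik3 had 0.0521 with batch as a random block. Seipin had 0.0589 with no filter and 0.0688 with a variance trend. Replicate 3 lay in different batches, so the numbers do not pair all samples. Deviations from the mean of a batch and group correlated from -0.295 to 0.240 between same-numbered samples, over 0.1 in 1 of 5 pairs (replicate 3). These correlations cannot decide on pairing within a batch. In a group of 2 samples the deviations are equal in size and opposite in sign, whatever the pairing.

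When 1 sample was left out, 1761 to 2262 were called over both batches, 1203 to 1974 within batch A, 525 to 1302 within batch B, 30 to 117 for the difference between batches, and 3271 to 4183 between the control groups. Members called lower then numbered 3 to 4 within each batch and between the control groups. The changes over both batches ran from -1.10 to -0.96 for Lsd-1, -0.97 to -0.87 for bgm, -0.73 to -0.59 for Lip4, -0.38 to -0.34 for bmm and 1.29 to 1.58 for Apoltp, each called in 10 of 10. The difference between batches, near 0 for bgm and Apoltp, changed sign with quantile normalization (0.019 and 0.16) and in 4 of the 10 fits without 1 sample for each gene, which ran from -0.13 to 0.12 for bgm and from -0.38 to 0.37 for Apoltp; the cause was not tested. Values at the lowest level of the scale, such as Lsd-2, hold no order.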

Other observations

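Neighbouring genes were read as a description, with the 2 genes on either side of each member that had a probe set of their own. Of these 24 neighbours 12 were tested, of which 2 rose, 1 fell and 9 did not pass. Over all tested 20.8% rose and 14.9% fell. CG10214 rose by 0.47 beside the fall of Lsd-1, whereas udt, on the other side of Lsd-1, fell by 0.48 (adjusted p = 0.00446 by limma). Near Apoltp, GlcAT-S rose by 0.64 (SE 0.09, adjusted p = 0.000634 by limma). None of the 4 such neighbours of bgm, NimC2, rk, NimC3 and hll, passed the filter on the mean.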
